A study of Homo sapiens with 2 samples.

Results

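The coagulation and complement factors described here are 43 genes, chosen by name from the 60623 gene entries counted in 2 HepG2 libraries. They divide into 20 genes of coagulation and fibrinolysis and 23 genes of the complement system, with the fibrinogen chains and the serpin inhibitors left out of the choice. The choice was made with earlier results of these data known, so comparisons with all genes below are descriptions only. Each was found by its Ensembl identifier, and each matched 1 entry. HepG2 is a human hepatocellular carcinoma line that keeps much of the secretory program of hepatocytes, so it stands for 1 transformed line and not for liver tissue. One library came from cells loaded with 1 mM FFA (free fatty acids, a BSA-bound mixture of oleic and palmitic acid) for 24 h, and is called FFA. The other came from FFA-loaded cells given 10 μM 9-cis-retinoic acid for 24 h, and is called FFA + 9-cis-RA. 9-cis-RA is a ligand of the nuclear receptors RXR and RAR. Both libraries carry the same batch label and the wild-type genotype, and the comparison asks how the transcriptome of fatty acid-loaded cells differs when the RXR ligand is present. Replicates, and so tests and p-values, cannot be had from 1 library per group, and every difference below is a difference between these 2 libraries.

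Most plasma clotting and complement proteins are made and secreted by hepatocytes. Clotting starts when tissue factor (F3) meets factor VII, and a chain of serine proteases then activates prothrombin, while TFPI, protein C and protein S restrain the chain and plasmin later dissolves the clot. Complement is a second protease cascade that meets at C3: antibody complexes start it through C1, sugars on microbes start it through mannose-binding lectin and its MASP proteases, and it ends in a pore built from C5b to C9. Several clotting factors need vitamin K-dependent carboxylation of glutamate residues before they can bind membranes.

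The libraries held 60821539 counts on genes for FFA and 57669670 for FFA + 9-cis-RA. CYP26A1, a retinoic acid-degrading enzyme and a classical retinoid target, had 4 counts in FFA and 709 in FFA + 9-cis-RA, in the direction of the labels. All 7 hepatocyte markers checked (ALB, AFP, APOA1, APOB, TTR, TF, HNF4A) were counted, with a summed level of 3935 FPKM in FFA and 3032 FPKM in FFA + 9-cis-RA. FPKM is CPM divided by the exonic length in kilobases, and it is used here wherever 1 gene's level is set against another's. Endothelial markers summed to 0.445 and 0.290 FPKM, with KDR at 0, and stellate and fibroblast markers to 0.0869 and 0.0546 FPKM, with DCN and LRAT at 0. Immune markers summed to 54.9 and 32.8 FPKM, nearly all of it LYZ (54.8 and 32.8 FPKM), with PTPRC at 0.

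Of the 43 genes, 34 had 100 or more counts over the pair of libraries and 5 had 10 to 99. C6, a component of the terminal pore, had 6 counts in FFA and 1 in FFA + 9-cis-RA and was too rare to compare. F9, F13B and PLG were at 0 in FFA and in FFA + 9-cis-RA. A 0 still allows at most 3 counts, which is 0.0493 CPM (counts scaled by the library total in the usual way) in FFA and 0.0520 CPM in FFA + 9-cis-RA. Factor IX, the B subunit of factor XIII and plasminogen are liver products in the body, and their transcripts were not detected at this depth.

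Levels of the counted genes spanned more than 3 orders of magnitude. The central component C3 was the most abundant of the 43 in both libraries, at 126 FPKM in FFA and 154 FPKM in FFA + 9-cis-RA. C8G stood at 78.8 and 44.6 FPKM, prothrombin (F2) at 78.7 and 78.5 FPKM, and PROC at 53.5 and 39.5 FPKM. These 4 genes led the list in both libraries, with C8G and F2 exchanging places just under C3. The gene that moved furthest down was TFPI, from place 11 to place 21.

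**Figure D1:**
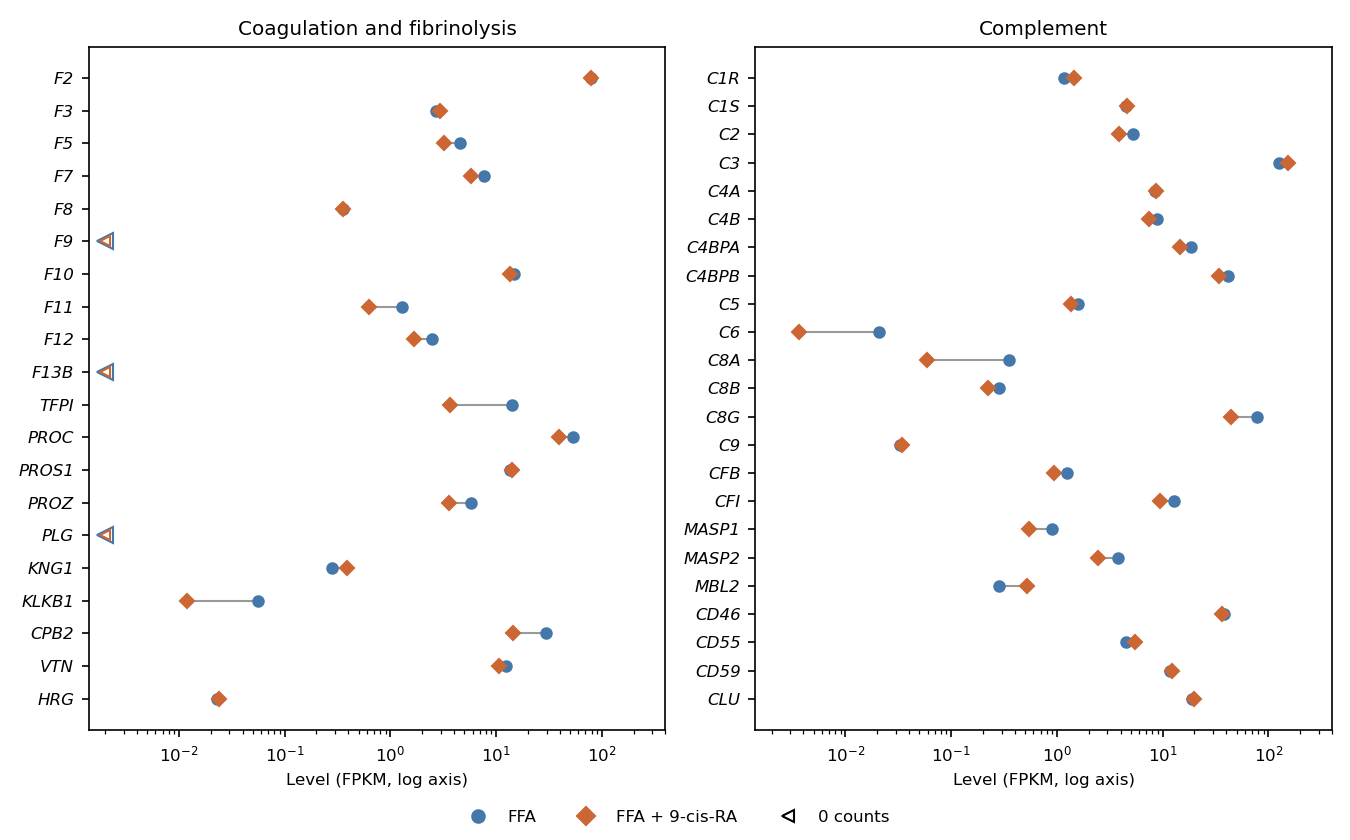
Level of each of the 43 genes in FPKM on a log axis, coagulation and fibrinolysis on the left and complement on the right, with 1 point per library and a line joining them. The longest lines among well-counted genes belong to TFPI (14.2 to 3.63 FPKM) and CPB2 (29.9 to 14.5 FPKM). Open triangles mark F9, F13B and PLG at 0 counts.

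Against all genes, both cascades leaned lower in FFA + 9-cis-RA. The log2 fold change is given throughout as FFA + 9-cis-RA against FFA, on DESeq2-scaled counts plus 1, for genes whose counts in the pair of libraries added to 10 or more. This left 39 of the 43 genes and 20431 entries in all. The median over the 17 compared coagulation genes was -0.47 (quartiles -0.73 and -0.053), with 13 lower and 4 higher. Over the 22 compared complement genes the median was -0.29 (quartiles -0.48 and 0.022), with 15 lower and 7 higher, counting C1S and C4A as lower, which were higher when scaled by total counts. All compared entries had a median of -0.020, with 10680 lower and 9751 higher. The medians of the 2 cascades differed by -0.17, which is small beside the spread within either one, and 1 library per group allows no test of it.

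Past a log2 fold change of -0.5 stood 7 of 17 coagulation genes (41.2%) and 5 of 22 complement genes (22.7%), beside 14.3% of all compared entries. Above 0.5 stood 0 coagulation genes and 1 complement gene, MBL2, beside 9.03% of entries. Among genes with 100 or more counts, where counting error is small, 6 of 15 coagulation and 4 of 19 complement genes were below -0.5, beside 7.85% of 14411 such entries. In the other direction 1 of these 34 genes was above 0.5, beside 3.48%. At the wider bound of 1, the fold part of the study's own cut-off, 5 genes were below -1 (TFPI, CPB2, F11, KLKB1 and C8A, beside 4.90% of entries) and 0 were above 1 (beside 3.37%). Of these 5 genes, 4 belong to coagulation, and KLKB1 and C8A had under 100 counts. DESeq2 was used here for scaling only, and no p-value stands behind any of these counts.

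An exact 95% interval was computed for each fold change. These intervals and the limit for a count of 0 cover counting error only, not the spread between cultures. The interval lay below 0 for 12 of 17 coagulation and 12 of 22 complement genes, beside 25.7% of entries. It lay above 0 for 0 coagulation genes and 4 complement genes (C1R, C3, MBL2 and CD55), beside 22.5% of entries. Intervals narrow with depth, and most members are well counted. Among genes with 100 or more counts, it lay below 0 for 11 of 15 coagulation and 11 of 19 complement genes, beside 32.2% of such entries. The same 4 complement genes and 0 coagulation genes had it above 0, beside 29.1%. Fewer cells making a transcript and less transcript per cell cannot be told apart in bulk RNA.

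**Figure D2:**
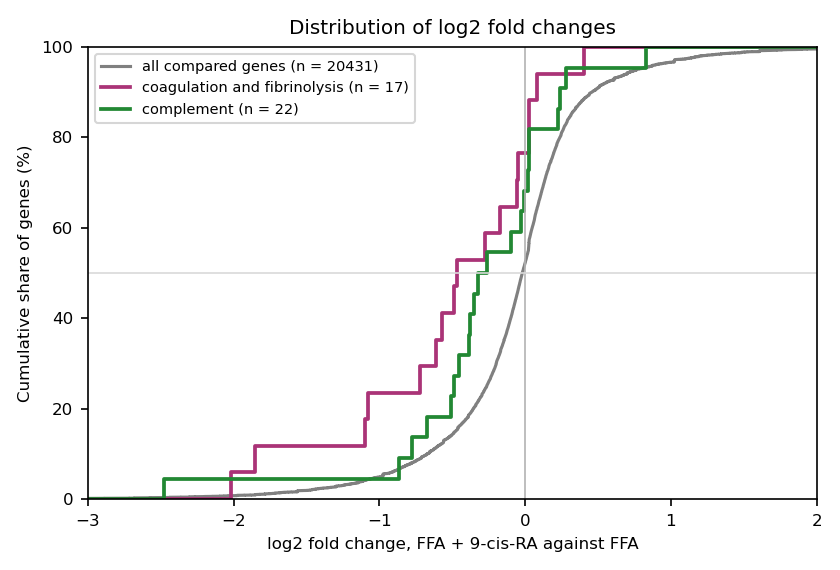
Cumulative share of genes by log2 fold change (FFA + 9-cis-RA against FFA) for the 17 coagulation genes, the 22 complement genes and all 20431 compared entries, with the axis limited to the range that holds the members. Both member curves lie left of the curve for all entries over most of the axis, with medians of -0.47 and -0.29 beside -0.020.

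Summed counts gave another picture, because a few genes carry most of them. The coagulation genes summed to 48097 counts in FFA and 33164 in FFA + 9-cis-RA, a log2 difference of -0.51 (95% interval -0.53 to -0.49). TFPI alone made up 21.0% of that sum in FFA and 7.40% in FFA + 9-cis-RA, and without it the difference was -0.28 (-0.30 to -0.26). The complement genes summed to 134697 and 134513 counts, a difference of 0.026 (0.015 to 0.037). C3 held 47.3% of the complement sum in FFA and 54.8% in FFA + 9-cis-RA, and without C3 the difference was -0.20 (-0.21 to -0.18). The complement sum thus had the sign of C3, and the sum of the other 22 genes had the sign of the median.

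At the start of clotting, the receptor and its protease differed. F3, tissue factor, the membrane protein that starts clotting, had 476 counts in FFA and 494 in FFA + 9-cis-RA (2.71 and 2.97 FPKM), and its log2 fold change of 0.081 (-0.10 to 0.27) had 0 inside the interval. F7, the protease that tissue factor binds, had 1774 and 1258 counts (7.69 and 5.75 FPKM), a fold change of -0.47 (-0.57 to -0.36). Of the zymogens that follow, F2 had 12210 and 11550 counts and a fold change of -0.053 (-0.089 to -0.016), which was -0.0034 when scaled by total counts and 0.0021 with the trend on gene length removed. F10, the protease that cuts prothrombin, had 2135 and 1856 counts (14.8 and 13.6 FPKM) and stood at -0.17 (-0.26 to -0.084). The level ratio of F10 to F7 was 1.93 in FFA and 2.36 in FFA + 9-cis-RA.

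The cofactors, which hold the proteases on membranes, went separate ways. F5, the cofactor of factor X, had 2610 and 1725 counts (4.58 and 3.19 FPKM), a fold change of -0.57 (-0.66 to -0.48). F8, the cofactor of factor IX, had only 236 and 223 counts (0.354 and 0.353 FPKM), and its fold change of -0.054 (-0.32 to 0.22) is not distinguishable from 0 at this depth.

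In the contact system, which starts clotting on charged surfaces, 3 of 4 genes were below -0.5, beside 14.3% of all compared entries. F11, a protease that activates factor IX, had 261 and 121 counts (1.28 and 0.624 FPKM), a fold change of -1.08 (-1.40 to -0.76). F12, the protease at the head of the system, had 414 and 265 counts (2.46 and 1.66 FPKM) and stood at -0.61 (-0.84 to -0.39). KLKB1, prekallikrein, had 10 counts in FFA and 2 in FFA + 9-cis-RA, and its fold change of -1.85 carries an interval from -5.52 to -0.064. KNG1, the kininogen that carries prekallikrein and factor XI and releases bradykinin, had 79 and 103 counts (0.282 and 0.388 FPKM), a fold change of 0.41 whose interval of -0.027 to 0.85 includes 0.

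The widest difference among well-counted genes was in the anticoagulants. TFPI, which inhibits the complex of tissue factor and factor VIIa, had 10122 counts in FFA and 2454 in FFA + 9-cis-RA (14.2 and 3.63 FPKM). Its fold change was -2.02 (-2.08 to -1.95), 4.05-fold lower, and it lies on chromosome 2 at 187464230 to 187565760, minus strand (GRCh38). TFPI transcript stood at 5.24 times the level of F3 in FFA and 1.22 times in FFA + 9-cis-RA, and at 1.85 and 0.632 times the level of F7. Per exonic length, TFPI was thus the more abundant of the TFPI and F7 pair in FFA and the less abundant one in FFA + 9-cis-RA. That order depends on the merged exonic lengths used, 11714 bases for TFPI and 3795 for F7. In raw counts TFPI stayed above F7 in FFA + 9-cis-RA, at 2454 against 1258.

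The protein C branch was split. PROC, the zymogen of the protease that inactivates factors Va and VIIIa, had 8112 and 5682 counts, a fold change of -0.49 (-0.54 to -0.44). PROS1, its cofactor protein S, had 4476 and 4463 counts (13.5 and 14.2 FPKM), a fold change of 0.023 (-0.037 to 0.084). Between them the level ratio of PROC to PROS1 was 3.95 in FFA and 2.78 in FFA + 9-cis-RA. PROZ, protein Z, a cofactor for inhibition of factor Xa, had 587 and 348 counts (5.76 and 3.60 FPKM), a fold change of -0.73 (-0.92 to -0.53).

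The vitamin K-dependent proteins cut across these roles. Of the 7 among the members (F2, F7, F9, F10, PROC, PROS1, PROZ), 6 were compared, with a median of -0.32. Of these, 5 were lower in FFA + 9-cis-RA, beside 10680 of all 20431 compared entries. Only 1 (PROZ) was below -0.5 (16.7%, beside 14.3% of all compared entries). The enzymes and receptors that carboxylate and export clotting factors (GGCX, VKORC1, VKORC1L1, LMAN1, MCFD2) had a median of 0.018, and none of the 5 was past 0.5 in either direction.

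Among the genes of fibrinolysis, CPB2 stood apart. CPB2 encodes the carboxypeptidase known as TAFI, which slows clot lysis by trimming fibrin, and lies on chromosome 13 at 46053186 to 46105033, minus strand. It had 3137 counts in FFA and 1437 in FFA + 9-cis-RA (29.9 and 14.5 FPKM), a fold change of -1.10 (-1.19 to -1.01). VTN, vitronectin, an adhesive plasma protein that binds PAI-1 and also the terminal complement complex, had 1451 and 1176 counts (12.5 and 10.7 FPKM), a fold change of -0.28 (-0.39 to -0.16). Other genes on the same strand overlap 17.3% of VTN's exonic length, where reads were not counted. HRG, a plasminogen-binding glycoprotein, had 7 counts in FFA and 7 in FFA + 9-cis-RA, and its interval ran from -1.71 to 1.77.

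**Figure D3:**
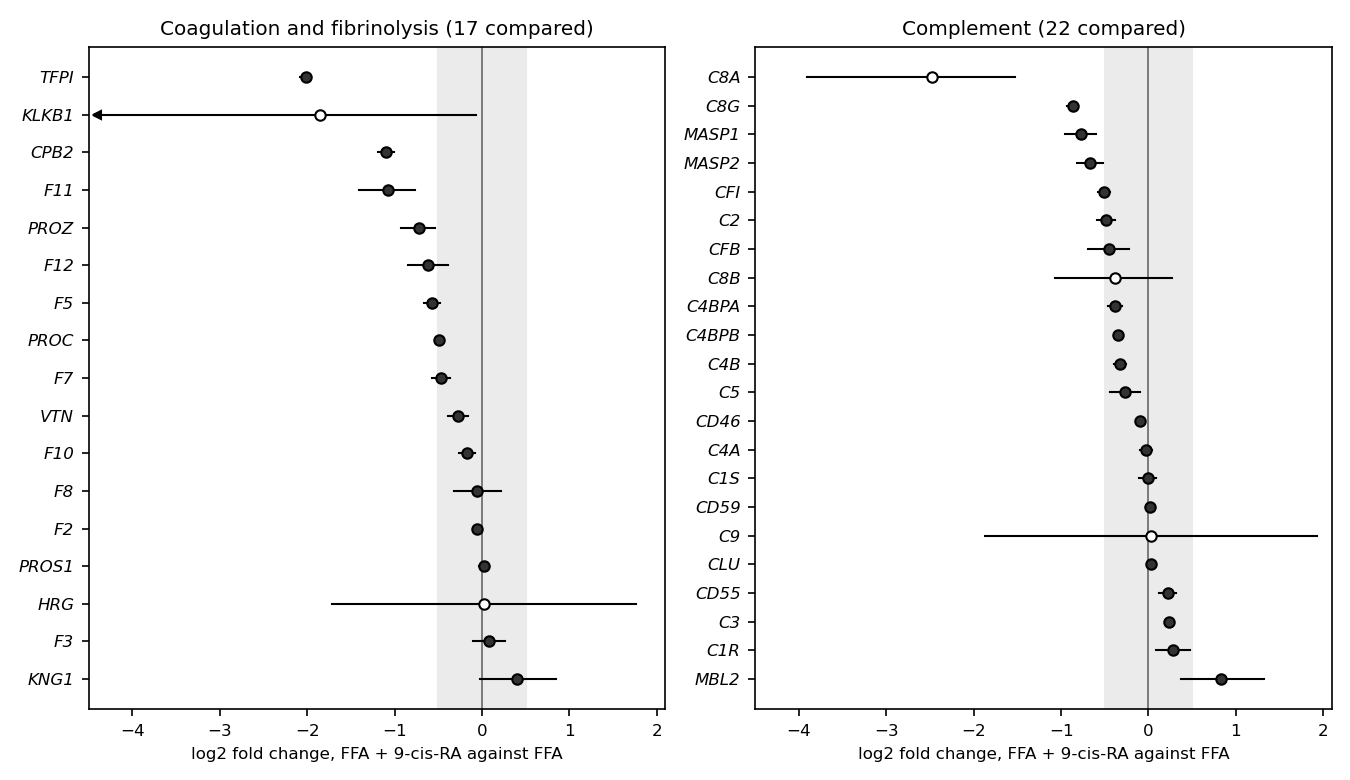
Log2 fold change (FFA + 9-cis-RA against FFA) of each compared gene with its exact 95% interval, which covers counting error only, ordered within coagulation and complement, with open points for genes under 100 counts, a grey band from -0.5 to 0.5 and an arrow where KLKB1's interval leaves the axis. TFPI (-2.02), CPB2 (-1.10) and F11 (-1.08) are the well-counted genes beyond -1, while the wide bars of KLKB1, C8A, HRG and C9 show how few counts they rest on.

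Complement's classical pathway held 5 of the genes. None was past 0.5 in either direction, beside 9.03% of all compared entries above 0.5 and 14.3% below -0.5. C1R and C1S, the proteases of the C1 complex, had 410 and 489 counts and 1773 and 1727 counts in FFA and FFA + 9-cis-RA. C1R stood at 0.28 (0.090 to 0.47) and C1S at -0.010 (-0.11 to 0.086), which was 0.0096 with TMM and 0.039 with total-count scaling, with levels of 1.16 and 1.46 FPKM for C1R, 11.6% of whose exonic length is overlapped by same-strand genes, and 4.51 and 4.63 FPKM for C1S. C2, the protease of the C3 convertase, had 1764 and 1236 counts (5.26 and 3.88 FPKM), a fold change of -0.49 (-0.59 to -0.38). C2 lies at the bound of -0.5, with -0.51 when the length trend was removed and -0.52 when the expression trend was removed. Overlapping genes on the same strand, CFB among them, cover 33.4% of C2's exonic length.

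C4A and C4B, the thioester proteins that carry the classical convertase, are near-identical neighbours. C4A had 3683 and 3547 counts (8.46 and 8.59 FPKM), a fold change of -0.027 (-0.094 to 0.040), which was 0.022 when scaled by total counts. C4B had 3901 and 3058 counts (8.94 and 7.39 FPKM), a fold change of -0.32 (-0.39 to -0.25). Over 5427 aligned bases their longest coding transcripts in GENCODE 29 differ at 13 positions, an identity of 99.8%. Within those bases, only reads across such positions can be given to 1 copy. The counted exonic lengths are 7158 bases for C4A and 7174 for C4B, and the remainder was not compared. The densest stretch of differences is shown because, within the aligned bases, counts that separate the copies rest on windows like it. It lies in coding exon 26 of 41 (plus strand, GRCh38), at chr6:31996076-31996105 in C4A and chr6:32028814-32028843 in C4B, and capitals mark the 5 bases that differ.
C4A: caggaccCctGtccagtgTtaGaCaggagc
C4B: caggaccTctCtccagtgAtaCaTaggagc
Reads from the aligned bases that hold no such difference map to both copies and were dropped by the authors' counting. The split between C4A and C4B is therefore uncertain. The level ratio of C4A to C4B was 0.946 in FFA and 1.16 in FFA + 9-cis-RA.

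In the lectin pathway the proteases and the recognition protein stood on opposite sides of 0. MASP1, a protease bound to mannose-binding lectin, had 717 and 411 counts (0.896 and 0.542 FPKM), a fold change of -0.77 (-0.95 to -0.60). MASP2, the protease that cuts C4 and C2, had 975 and 600 counts (3.77 and 2.44 FPKM) and stood at -0.67 (-0.82 to -0.52). MBL2, mannose-binding lectin itself, had 61 counts in FFA and 107 in FFA + 9-cis-RA (0.281 and 0.520 FPKM), a fold change of 0.83 (0.37 to 1.32). MBL2 is thus the only one of the 39 compared genes above 0.5, and the interval of that fold change does not meet those of either protease.

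C3, on which all complement pathways meet, had 63676 counts in FFA and 73689 in FFA + 9-cis-RA, a fold change of 0.24 (0.22 to 0.25). Its value ran from 0.19 with the length trend removed to 0.30 with the expression trend removed, a wider range than its counting interval. CFB, the protease of the alternative pathway convertase, had 375 and 268 counts (1.23 and 0.930 FPKM), a fold change of -0.46 (-0.69 to -0.23). Same-strand genes, C2 among them, overlap 45.5% of CFB's exonic length. The level ratio of C3 to CFB was 102 in FFA and 166 in FFA + 9-cis-RA.

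In the terminal pathway the subunits of C8 were present at very unequal levels. C8G, the lipocalin-like gamma chain, had 5518 and 2963 counts, a fold change of -0.87 (-0.93 to -0.80). C8A, the alpha chain that inserts into membranes, had 50 and 8 counts (0.349 and 0.0589 FPKM), a fold change of -2.48 (-3.90 to -1.53). C8B, the beta chain, had 47 and 35 counts (0.283 and 0.222 FPKM) and stood at -0.39 with an interval of -1.07 to 0.26. C8G transcript was 226 times as abundant as C8A in FFA and 757 times in FFA + 9-cis-RA, and 278 and 201 times as abundant as C8B. The ratios to C8A rest on its 50 and 8 counts, so the difference between them is poorly fixed. Those to C8B rest on 47 and 35 counts. The gamma chain gene lies on chromosome 9 at 136945185 to 136946975, while C8A and C8B lie side by side on chromosome 1.

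Of the other terminal components, C5, whose cleavage starts pore assembly, had 632 and 516 counts (1.59 and 1.37 FPKM), a fold change of -0.26 (-0.44 to -0.095). C9, which polymerizes into the pore, had 6 counts in each library. With C6 at 7 counts in all, the pore components C6, C8A, C8B and C9 were all scarce while C5 and C8G were not.

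Regulators in plasma were mildly lower or level. C4BPA and C4BPB, the chains of C4b-binding protein, had 2775 and 2090 counts (18.5 and 14.7 FPKM) and 8101 and 6238 counts (41.6 and 33.8 FPKM). Their fold changes of -0.38 (-0.46 to -0.30) and -0.35 (-0.40 to -0.30) have overlapping intervals, and the level ratio of C4BPB to C4BPA was 2.25 in FFA and 2.30 in FFA + 9-cis-RA. CFI, the protease that inactivates C3b and C4b, had 3829 and 2636 counts (12.9 and 9.38 FPKM), a fold change of -0.51 (-0.58 to -0.44). CFI lies at the bound of -0.5, and same-strand genes overlap 32.0% of its exonic length. CLU, clusterin, which blocks pore insertion, had 7233 and 7226 counts (18.9 and 19.9 FPKM), a fold change of 0.026 (-0.021 to 0.073), and -0.010 with the length trend removed.

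The membrane regulators, which protect the cell's own surface, had a median of 0.017. None was past 0.5 in either direction, beside 9.03% of all compared entries above 0.5 and 14.3% below -0.5. CD46, a cofactor for cleavage of C3b, had 19972 and 18287 counts (37.7 and 36.4 FPKM), a fold change of -0.10 (-0.13 to -0.071). CD55, which takes convertases apart, had 1622 and 1857 counts (4.51 and 5.45 FPKM) and stood at 0.22 (0.13 to 0.32). CD59, which stops C9 from joining the pore, had 7571 and 7518 counts (11.8 and 12.3 FPKM), a fold change of 0.017 (-0.029 to 0.064), and -0.039 with the length trend removed.

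Set by role, the medians ran from -0.84 for the contact system, -0.67 for the lectin pathway and -0.61 for the anticoagulants to -0.027 for the classical pathway, which is the value of C4A, and 0.017 for the membrane regulators. Apart from cross-linking, whose only member F13B had 0 counts, each role holds only 2 to 5 compared genes. These medians therefore describe the genes listed and no more.

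Many of these genes lie close together, and 20 of the 43 fall into 7 neighbourhoods in which members lie within 1000 kb of each other. The tightest holds F7, F10 and PROZ on chromosome 13 at 113105788 to 113172386, 66.6 kb in all, with fold changes of -0.47, -0.17 and -0.73 in that order along the chromosome. On chromosome 4, KLKB1 and F11 lie within 79.8 kb and both were below -1. On chromosome 1, 707 kb hold C4BPB and C4BPA at -0.35 and -0.38 and, further along, CD55 at 0.22 and CD46 at -0.10. The complement genes of chromosome 6 (C2, CFB, C4A, C4B), within 138 kb, stood at -0.49, -0.46, -0.027 and -0.32. On chromosome 3, KNG1 at 0.41 and MASP1 at -0.77 share a neighbourhood of 632 kb with HRG. The C1S and C1R pair on chromosome 12 spans 104 kb, and the C8A and C8B pair 111 kb.

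**Figure D4:**
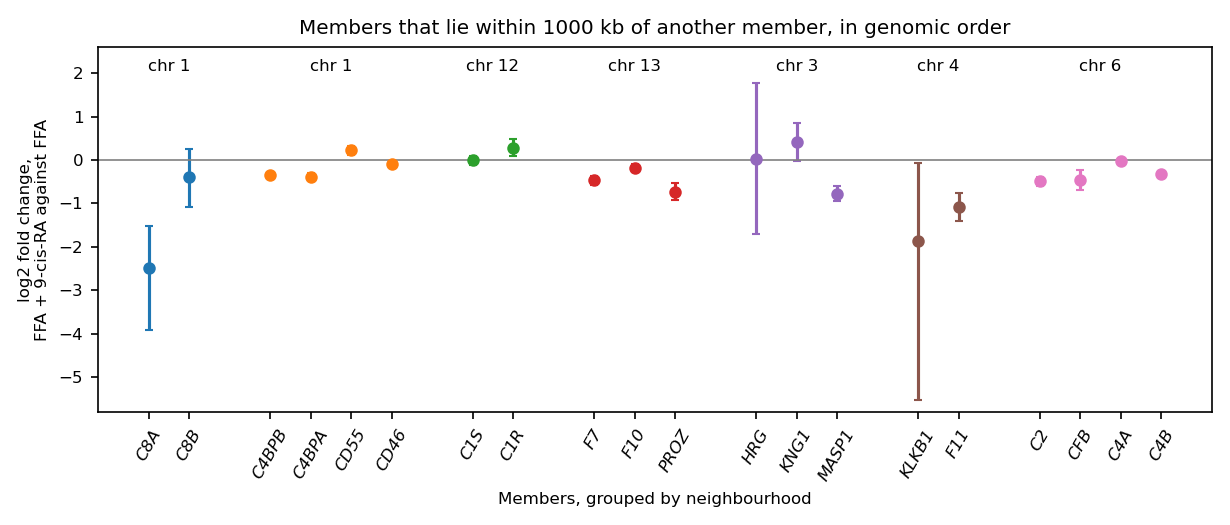
Log2 fold change (FFA + 9-cis-RA against FFA) with its exact 95% interval for members that lie within 1000 kb of each other, with 1 color per neighbourhood. Neighbours stand close in some groups (C4BPB and C4BPA at -0.35 and -0.38) and far apart in others (KNG1 at 0.41 and MASP1 at -0.77).

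9-cis-RA acts through receptors that bind direct repeats of the letters AGGTCA, called the half-site. These letters were looked for, singly and as such repeats, in the 250 bases before each start site. The search covered both strands of the windows in the RefSeq promoter table (GRCh38.p14). The table had 51 windows for 37 of the 43 genes. C1S, C3, C4A, C4B, C8G and CLU had no entry. The single half-site was found for 9 of the 37 genes (24.3%; C4BPB, CD46, F2, F7, KNG1, MASP1, MASP2, TFPI and VTN), beside 14.6% of all genes in the table. By window the shares were 21.6% of 51 and 12.1% of 35116. AGGTCANAGGTCA, AGGTCANNAGGTCA and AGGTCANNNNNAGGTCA (the repeats DR1, DR2 and DR5, each of which contains the half-site) were in 0 of the 51 windows, and in 0.0171%, 0.00285% and 0.00285% of all windows.

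Half-site matches of TFPI, MASP1 and MASP2 are shown because these 3 are the genes with a match that were below -0.5. Each is written on the strand of its gene (minus in all 3, GRCh38.p14), with the match in capitals, TGACCT being AGGTCA read on the other strand.
TFPI, chr2:187554498-187554527: tcagagttgcagTGACCTaaacaggaagtt
MASP1, chr3:187291769-187291798: caggggaaggcgTGACCTgaatggagaatg
MASP2, chr1:11047240-11047339: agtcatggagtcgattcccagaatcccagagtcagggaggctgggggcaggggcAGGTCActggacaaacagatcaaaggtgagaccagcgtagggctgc
The matches begin 80, 49 and 46 bases before the RefSeq start in TFPI, MASP1 and MASP2. For TFPI and MASP1, the window before the RefSeq start overlaps an exon of another transcript of the same gene in the deposited annotation. Whether that exon covers the printed bases was not checked. Among the genes with a match, only KNG1 stood above 0, at 0.41 with an interval of -0.027 to 0.85 that includes 0. The others were lower, from -2.02 (TFPI) to -0.053 (F2), while 28 of all 39 compared members were lower. Any link between a match and a direction was not tested. A match shows letters, not binding.

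Beyond the 43 genes, 51 further genes of the same systems were listed, of which 26 were compared and 16 had 0 counts in both libraries. Their median was -0.28, with 1 above 0.5 (beside 9.03% of entries) and 5 below -0.5 (19.2%, beside 14.3% of entries). In plasminogen activation, all 6 genes were compared and the median was -0.43. PLAU, urokinase, the plasminogen activator, had 176 and 74 counts (0.981 and 0.435 FPKM), a fold change of -1.21 (-1.63 to -0.82). VWF, the carrier of factor VIII, had 184 and 118 counts, a fold change of -0.61 (-0.96 to -0.27). COLEC11, a collectin that recruits the MASP proteases, had 2458 and 1515 counts (14.5 and 9.46 FPKM), a fold change of -0.67 (-0.76 to -0.58), close to MASP1 and MASP2.

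Other hepatocyte products differed as well. ALB, albumin, had 186609 counts in FFA and 112866 in FFA + 9-cis-RA, a fold change of -0.70, and AFP, alpha-fetoprotein, had 273242 and 134862, a fold change of -0.99. APOA1 and APOB, the main apolipoproteins of HDL and LDL, stood at 0.039 and 0.050. Of the 7 hepatocyte markers, 5 were lower, beside 10680 of all 20431 compared entries, with a median of -0.19. Below -0.5 stood 2 of the 7 (28.6%, beside 14.3% of all compared entries). The part of these markers, or of LYZ, in the values of the coagulation and complement genes was not tested.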

How the data were processed

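Poly(A) RNA of 2 HepG2 cultures, FFA and FFA + 9-cis-RA, was sequenced as stranded paired-end libraries, 1 per group. The authors deposited raw counts per gene and each gene's exonic length, made with featureCounts 2.0.1 on GRCh38, on the reverse strand (setting 2), leaving out multi-mapped reads and reads shared by genes. This lowers overlapping genes and near-identical copies. The aligner and annotation release are not given in the sources used here. Symbols came from GENCODE 29.

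Here, counts were scaled by DESeq2 1.42.0 size factors (R 4.3.3), with a pseudocount of 1 and a minimum of 10 counts over both libraries. Exact (Clopper-Pearson) 95% intervals were computed without a pseudocount in scipy 1.17.1. FPKM used total counts. The step was tested on simulated data. Alternatives were TMM (edgeR 4.0.16) or total-count scaling, pseudocounts of 0.1 and 5, other minimums, removed length or expression trends, and other memberships. Every member is named, and of further genes those with at least 100 counts and a fold change past 0.5. Members and lists were chosen with earlier results of these data known.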

Additional observations from a re-analysis of the deposited data

How the results depend on the processing

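No paired analysis was possible because each group has 1 library. The coagulation median ran from -0.42 (total-count scaling) to -0.49 (expression trend removed), the complement median from -0.24 (total-count scaling) to -0.32 (no minimum), and their difference from -0.12 (length trend removed) to -0.20. Coagulation genes below -0.5 numbered 6 to 8 and complement genes 4 to 6. Members below -1 numbered 5, but 3 with a minimum of 100 counts, which leaves out KLKB1 and C8A, and 6 with no minimum, which admits C6. Of 422 recomputed values of single genes, 407 stayed inside the main counting interval and 15 left it. The sign changed in 6 values of 5 genes: C1S at 0.0096 (TMM) and 0.039 (total-count scaling), C4A at 0.022 (total-count scaling), and CLU at -0.010, CD59 at -0.039 and F2 at 0.0021 with the length trend removed. Of these genes, only F2 had a main interval that left out 0. Counting error limits KLKB1, HRG, C8A, C8B and C9, and the spread between cultures is unknown for every gene.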

Other observations

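F3 and the membrane regulators (CD46, CD55 and CD59), a set chosen after its values were seen, had fold changes from -0.10 to 0.22. Their median was 0.049, with 0 of 4 past 0.5. The set was not checked to hold every member with a surface-bound form, and TFPI, at -2.02, was left among the other members. The other 35 compared members had a median of -0.38, with 12 below -0.5 (34.3%, beside 14.3% of all compared entries). Because the 4 genes were chosen with their values known, that choice shaped the contrast. Summed levels of these 4 genes were 56.7 FPKM in FFA and 57.2 FPKM in FFA + 9-cis-RA, and those of the other 35 members 573 and 499 FPKM.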
